A study of Mus musculus with 9 samples.

Results

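The mRNAs of 8 translation factors were followed here through a crosslinking study of mouse brain polyribosomes. They encode elongation factors (Eef2, Eef1a1, Eef1a2, Eef1b2 and Eef1g) and the eIF4G family of initiation scaffolds (Eif4g1, Eif4g2 and Eif4g3). All 8 symbols were matched in the authors' gene table, which lists 29261 genes, of which 8834 have at least 1 FMRP tag. Of the 8 mRNAs, 7 had an FMRP tag in that table, and Eef1b2 was the exception. The 8 were chosen by measured values, since Eef2 carried far more FMRP tags than Hu tags and many FMRP tags for the length of its coding sequence. For this reason the FMRP over Hu values and the tags per coding length describe them and carry no test.

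The libraries were made by HITS-CLIP, in which ultraviolet light joins a protein to the RNA it touches and the RNA fragments that come down with the protein are sequenced as tags. FMRP is the RNA-binding protein missing in fragile X syndrome, and the neuronal Hu proteins are another family of RNA-binding proteins found on polyribosomes. Cortex and cerebellum of FVB mice, dissected away from white matter, were the source, and littermates were pooled per the series text. Fmr1-null littermates (Fmr1Tm1Cgr) served the study as a specificity check and are not analysed here. FMRP was precipitated with the mixed monoclonal antibodies 7G1-1 and 2F5 at postnatal days 14, 15 and 25 (P14, P15, P25; 1 library each) and with the polyclonal antibody ab17722 at P14 and P25 (1 library each). These 5 libraries followed Protocol 1 (1% SDS, 454 sequencing, male mice). Protocol 2 (2% SDS, Illumina sequencing) gave 2 FMRP libraries with ab17722 and 2 libraries with an anti-Hu antiserum, in each case from the P11 and the P13 lysate, which was shared between the 2 proteins. Each library is a pool of mice and each group mixes ages, so the spread between libraries includes age.

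Elongation factors carry the ribosome along the coding sequence: eEF1A, made from Eef1a1 or Eef1a2, delivers aminoacyl-tRNA, the products of Eef1b2 and Eef1g belong to the complex that recharges eEF1A with GTP, and eEF2 moves the ribosome on by a codon. eIF4G proteins hold the cap-binding protein and the helicase eIF4A together so that the small ribosomal subunit can be recruited. In neurons Eef1a2 replaces Eef1a1 as the brain matures, and eEF2 is switched off by its kinase eEF2K, a step studied in synaptic plasticity.

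Depth ranged from 4397 to 7713 tags on transcripts for 454 and from 25873 to 49847 for Illumina. A count of 0 allows up to 3 tags, or from 60.2 CPM (tags scaled to a common library total) at the greatest depth to 682 CPM at the lowest. All 6 neuronal markers had tags (2502 to 5204 CPM summed in FMRP libraries, 7575 and 12558 CPM in Hu), as did all 4 markers of cerebellar neurons. Of the 4 microglial markers, Aif1, C1qa and Cx3cr1 were at 0. Summed oligodendrocyte markers ranged from 112 to 2201 CPM in FMRP libraries and from 4831 to 11074 CPM in Hu libraries. Summed astrocyte markers ran the other way, at 178 to 1605 CPM with FMRP and 77.3 to 120 CPM with Hu. The part of either list in the results on the translation factors was not tested.

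Eef2 was the member with most FMRP tags and was tagged in every FMRP library. Its gene spans bases 80639404 to 80645241 of chromosome 10 (mm9), and its listed transcript of 3068 nucleotides has 2577 coding nucleotides. In the transcript tag lists it had 7 tags in the monoclonal P14 library, 11 at P15 and 15 at P25. The polyclonal 454 libraries had 18 tags at P14 and 9 at P25. The polyclonal Illumina libraries had 66 tags at P11 and 75 at P13, against 0 and 1 in the Hu libraries of the same lysates. In CPM the 7 FMRP libraries lay between 1592 and 2755, and both Hu libraries were at or below 20.1. Eef2 was chosen on this gap, and the share of all genes with such a gap was not determined. In the authors' whole-transcript counts Eef2 stood at 1689 ± 459 CPM (SD, n = 7) and was 46th of all genes by summed tags. Tag counts are not adjusted for the amount of mRNA, and in bulk tissue fewer cells of a type and less RNA per cell cannot be told apart.

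The Eef2 ratio of FMRP to Hu, over both lysates, was 151 with a 95% counting interval of 26.6 to 5992, since it rests on 1 Hu tag. In the P11 lysate, where Hu had no tag, FMRP was 21.2-fold higher when computed against 3 tags. The lower end of the counting interval there was 16.8. The edgeR fit over all 1015 genes gave a log2 difference of 7.21 (SE 0.93). In that fit 60.9% of genes passed the 0.05 threshold, 33.6% higher in FMRP and 27.3% higher in Hu, and the median log2 difference of all genes was -0.16. Only 4 members (Eef2, Eef1a1, Eif4g1 and Eif4g2) passed the filter on low counts.

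**Figure D1:**
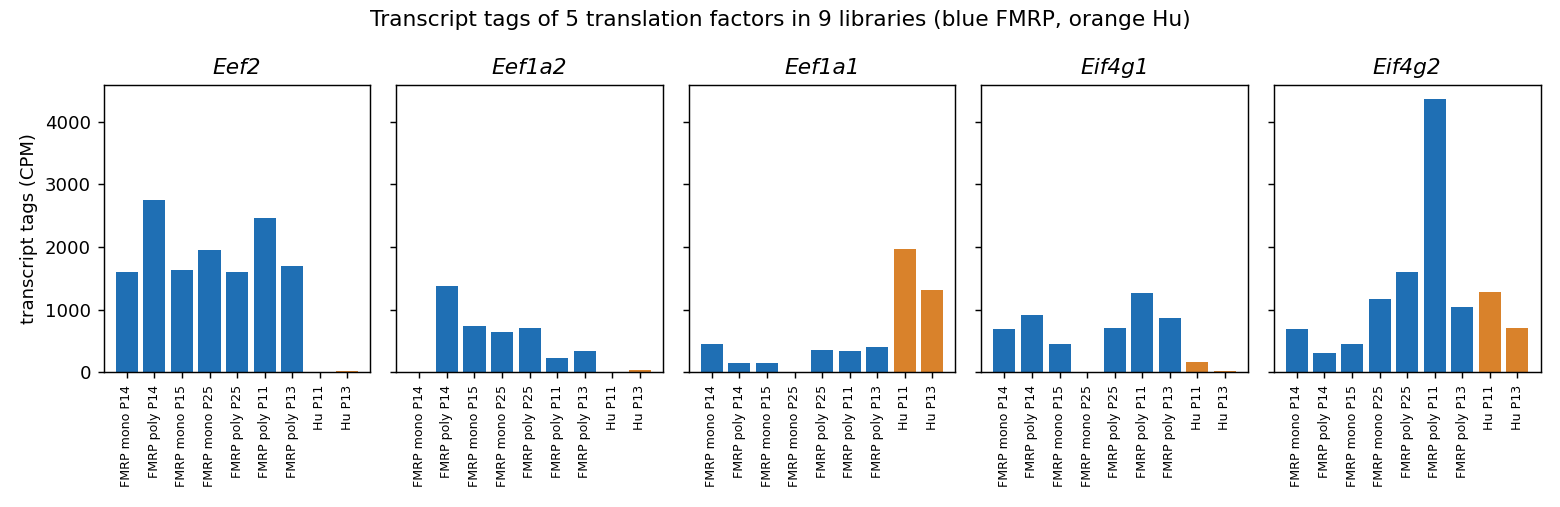
Transcript tags in CPM (vertical axis) of 5 members in each of the 9 libraries (horizontal axis; 1 bar per library, blue FMRP, orange Hu). Eef2 is near or above 1600 in all FMRP bars and at or below 20.1 in both Hu bars, and Eef1a1 is the member whose Hu bars, 1971 and 1304, exceed every FMRP bar.

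Eef1a1, the eEF1A form of most tissues, had the opposite order. Its gene lies at bases 78326261 to 78329531 of chromosome 9 (mm9). It had 51 and 65 tags in the Hu libraries and 9 and 18 in the FMRP libraries of the same lysates. The 5 libraries of Protocol 1 held 2, 1, 1, 0 and 2 tags. The Hu libraries stood at 1971 and 1304 CPM, and the 7 FMRP libraries at 0 to 455 CPM. Hu over FMRP was 4.02-fold (counting interval 2.63 to 6.36), being 5.87-fold in the P11 lysate and 3.19-fold in the P13 lysate. The fitted log2 difference was -1.81 (SE 0.62). It shrank to -0.51 (SE 0.74) when each start position counted once, since 51 and 65 Hu tags had 16 and 24 start positions, and to -1.16 without the P11 FMRP library.

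Eef1a2, the eEF1A form of mature neurons and muscle, was tagged mainly in FMRP libraries. It lies at bases 180882397 to 180891720 of chromosome 2 (mm9). On Illumina there were 6 FMRP tags at P11 and 15 at P13, against 0 and 2 Hu tags. The ratio of FMRP to Hu was 11.2 with a counting interval of 2.74 to 98.7. With so few tags it did not pass the filter of the fit. In the 454 libraries it had 0 tags in the monoclonal P14 library, 5 in each of the monoclonal P15 and P25 libraries, and 9 and 4 in the polyclonal P14 and P25 libraries.

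Set side by side, the tags of these paralogs showed a different mixture for each protein. Of the tags on either mRNA, Eef1a1 held 98.3% in the Hu libraries (Wilson interval 94.0 to 99.5, 118 tags in all), 56.3% in the FMRP Illumina libraries (42.3 to 69.3) and 20.7% in the FMRP 454 libraries (9.85 to 38.4). The single 454 library with Eef1a1 alone, monoclonal P14, had 2 tags. Age, platform and protocol go together between the FMRP sets and cannot be told apart. The paralogs are similar in sequence and Eef1a1 has processed pseudogenes, so the placement of reads between them is uncertain.

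The members of the exchange complex were hardly seen. Eef1b2 (bases 63223705 to 63226230 of chromosome 1, mm9) had 2 transcript tags, both in the P11 FMRP library and both ending past the end of its listed transcript. Eef1g (bases 9041531 to 9052670 of chromosome 19, mm9) had 3 FMRP tags in the authors' counts, 2 at P11 and 1 at P13, and none in any transcript list. In the authors' deposited table the exon array intensity is 442 for Eef1b2 and 8.08 for Eef1g. That of Eef1b2, which had no whole-transcript FMRP count, is above that of 83.7% of the 19991 genes with a value. Intensities of different genes do not rank their mRNA amounts, and the listed Eef1b2 transcript is short, with 803 nucleotides.

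Eif4g1, the principal cap-dependent scaffold, leaned to FMRP. It lies at bases 20672822 to 20692956 of chromosome 16 (mm9). FMRP brought down 34 tags at P11 and 38 at P13 on Illumina, and Hu 4 and 1. The ratio was 15.4 (counting interval 6.30 to 48.8), being 8.21 in the P11 lysate and 43.0 in the P13 lysate. Those 2 intervals, 2.93 to 31.8 and 7.26 to 1742, overlap. In the 454 libraries it had 3, 6, 3, 0 and 4 tags, the 0 being the monoclonal P25 library. The fitted log2 difference was 4.06 (SE 0.90).

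Eif4g2 encodes an eIF4G relative, also called DAP5, that lacks the part that binds the cap-binding protein. It lies at bases 118211499 to 118226544 of chromosome 7 (mm9), and it was bound by both proteins. FMRP had 117 Illumina tags at P11 and 46 at P13, and Hu had 33 and 35. The ratio was 2.56 over both lysates (counting interval 1.92 to 3.45), 3.42 in the P11 lysate (2.31 to 5.20) and 1.49 in the P13 lysate (0.94 to 2.38). The fitted log2 difference was 1.65 (SE 0.71), and it was 0.93 (SE 0.77) without the P11 FMRP library and 2.86 (SE 0.61) without the P13 FMRP library. Over the FMRP libraries Eif4g2 varied more than Eef2: the authors' counts gave 1262 ± 1154 CPM (SD, n = 7), from 296 in the polyclonal P14 library to 3488 in the P11 library. Without the P11 library the mean was 891 ± 664 CPM (SD, n = 6).

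Eif4g3, which encodes the other cap-dependent scaffold, could be followed only in part. Its gene spans bases 137549385 to 137762386 of chromosome 4 (mm9). The authors' counts gave 37 FMRP tags, with 1, 4 and 3 in the monoclonal libraries (P14, P15, P25), 3 and 0 in the polyclonal 454 libraries (P14, P25) and 12 and 14 in the Illumina libraries (P11, P13). The transcript lists held only 1 of them, at P11, and none for Hu. Among tags placed on the genome, on the strand of the gene, FMRP had 12 at P11 and 14 at P13, and Hu had 1 and 11. Introns are included in these genomic tags, and the share in introns was not determined.

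**Figure D2:**
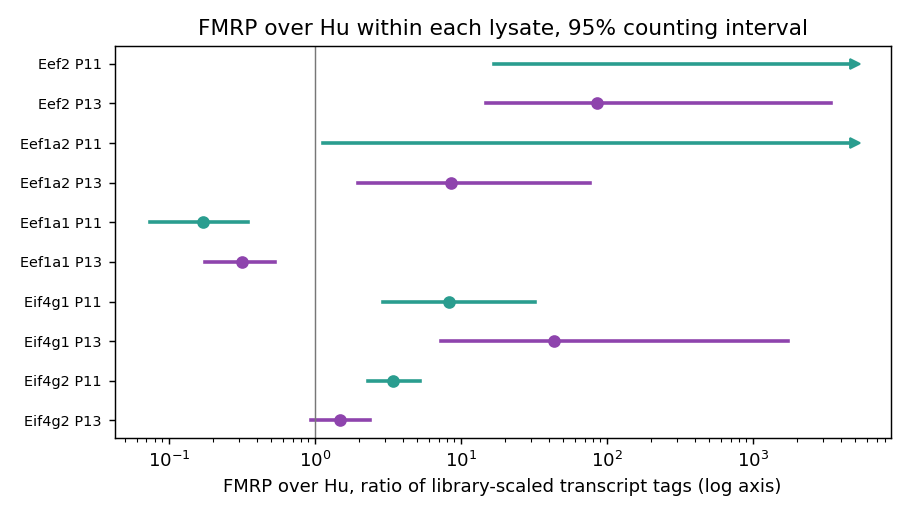
Ratio of FMRP to Hu transcript tags, scaled to library totals (horizontal log axis), for 5 members in each lysate (teal P11, purple P13), with 95% counting intervals as bars and an arrow where Hu had no tag. Eef1a1 lies below 1 in both lysates, Eif4g2 at P13 spans 1 (0.94 to 2.38), and the other intervals lie above 1.

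The tags were also set per length of coding sequence. Eef2 had 734 ± 157 FMRP coding CPM per kilobase of coding sequence (SD, n = 7; lowest 517, highest 982), the 22nd highest of 7524 genes with a coding tag, whose median was 25.6. Among the 5243 genes with a coding sequence no longer than that of Eef2, none had more coding tags and 10 had more per kilobase. On this scale Apc, with 8744 coding nucleotides, had 870 ± 590, Bsn, with 11829, had 590 ± 127, and Map1b (listed as Mtap1b), with 7418, had 875 ± 575 (SD, n = 7). The spread between libraries of Eef2 overlaps that of all 3. Apc, Bsn and Map1b are long neuronal mRNAs given here for scale.

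The other members were lower per coding kilobase. Eif4g2 had 475 ± 453 (SD, n = 7; rank 48), which fell to 163 per kilobase of whole transcript because its listed transcript is 7760 nucleotides long. Eef1a2 had 333 ± 258 (SD, n = 7; rank 116), Eef1a1 189 ± 152 (rank 363) and Eif4g1 176 ± 90.2 (rank 410). Eif4g3 had 82.3 ± 43.6 and Eef1g 14.6 ± 28.8. The ranges of Eef1a2, Eef1a1 and Eif4g1 over libraries all began at 0, so neighbours in this order do not differ beyond their spread.

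Exon array intensities are given beside the tags as a description, since intensities of different genes come from different probes and do not rank their mRNA amounts. In the authors' deposited table the intensity is 1152 for Eef2, 1374 for Eef1a1 and 3134 for Eef1a2. The part of mRNA amount in the tags was not tested. Of the 827 genes with an intensity at least that of Eef2, 13 had more FMRP tags per coding kilobase, and the median of the 827, of which 136 had no coding tag, was 53.0 CPM per kilobase. Of the 580 genes at least as intense as Eef1a1, 121 were above it on that measure, and of the 88 at least as intense as Eef1a2, 20 were. For Eif4g2 the 2 abundance measures in the authors' deposited table disagree, with an array intensity of 24, above 10.9% of genes, and a neuronal log2 expression of 12.46, above 98.9% of genes. By membership in the authors' deposited table, 5 members (all elongation factors) are in its postsynaptic collection, and Eef2 is in the presynaptic one.

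**Figure D3:**
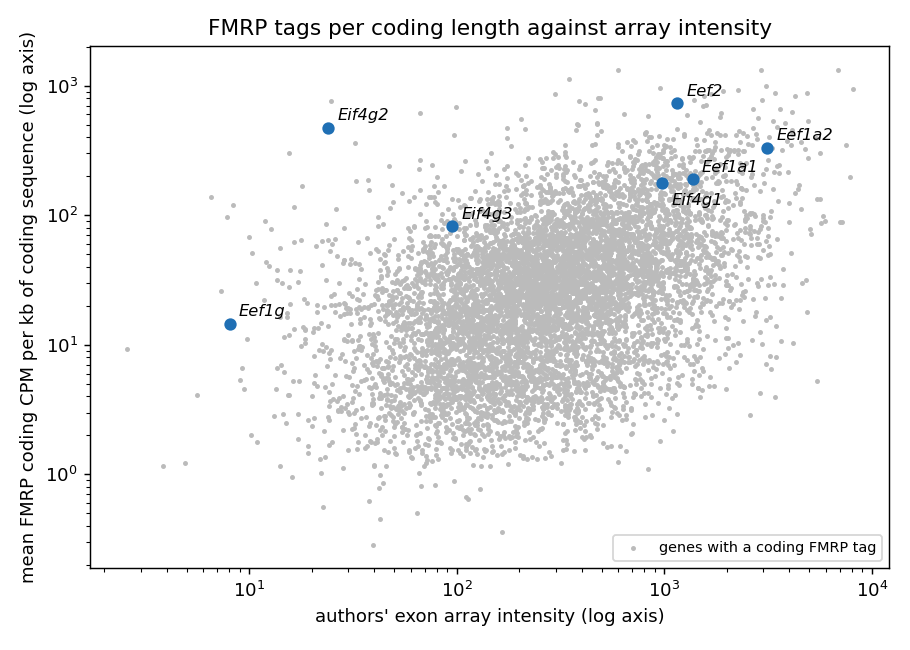
Mean FMRP coding CPM per kilobase of coding sequence over 7 libraries (vertical log axis) against the authors' exon array intensity (horizontal log axis), 1 point per gene with a coding FMRP tag, members in blue. Eef2 (734 CPM per kilobase at an intensity of 1152) sits near the top of the cloud, and Eef1a2 and Eef1a1 lie lower on the vertical axis.

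Positions along the transcripts were not used to choose the members. The middle of each tag was placed in 1 of 10 equal bins of the listed transcript, numbered from the 5′ end. Over all genes bins 9 and 10, the last 20% of the length, held 6.93% of FMRP tags and 23.7% of Hu tags. With 2 libraries against 2, an exact permutation test cannot give a p below 0.333, so positions are described by library.

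Eef2 tags were spread along the whole mRNA, from base 40 of the transcript to its end. The fullest stretch of 100 nucleotides held 17 of 141 Illumina FMRP tags, 12.1%. The 2 sets of FMRP libraries differed in where the tags lay, a contrast chosen after the values were seen. In the 454 libraries bins 9 and 10 held 0 of 7 tags (monoclonal P14), 0 of 11 (monoclonal P15), 0 of 15 (monoclonal P25), 2 of 18 (polyclonal P14) and 1 of 9 (polyclonal P25). In the Illumina libraries they held 26 of 66 tags (P11) and 20 of 75 (P13). The sums are 5.00% (Wilson interval 1.71 to 13.7) on 454 and 32.6% (25.4 to 40.7) on Illumina, and no 454 library reached the lower Illumina library. Over all genes the same shares were 5.33% and 7.64%. Platform, protocol and age cannot be told apart here, and 4 FMRP tags ended past the listed end of the transcript.

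Eef1a1 tags of Hu were gathered in 1 place, which only some FMRP tags shared. Of the 116 Hu tags, 111 (95.7%, Wilson interval 90.3 to 98.1) fell within 1 stretch, bases 1593 to 1717 of a transcript of 1789, with 48 from the P11 and 63 from the P13 library and 35 start positions. On the genome this stretch is chr9:78326333-78326457 (mm9, minus strand), where 108 of 111 Hu tags of the gene lay. FMRP tags of the Illumina libraries were found from bin 5 on, and 6 of 27 (22.2%) lay in bin 10, all from P13. On the transcript the fullest FMRP stretch of the Illumina libraries lay elsewhere, at bases 799 to 943. It held 7 of 27 tags, 4 from P11 and 3 from P13. On the genome the fullest FMRP stretch, chr9:78326359-78326437 with 6 tags, lies inside the Hu stretch. The files give no coding start and no coding counts for Hu. In the authors' counts 10 of 16 FMRP tags at P13 and 7 of 7 at P11 were coding. The non-coding tags at P13 match in number the 6 of bin 10, which would place that part of the stretch in the 3′ UTR.

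Eif4g2 was tagged by the 2 proteins in different parts. FMRP tags filled the 5′ part of the listed transcript, with 31, 57, 62 and 28 of 189 tags in bins 1 to 4. Hu tags had 14 of 68 in bin 1 and 29 in bin 5. The median tag middle was at 21.9% of the length for FMRP Illumina tags and at 44.0% for Hu tags. By library the medians were 20.5% and 24.3% for FMRP (P11, P13) and 43.5% and 44.8% for Hu, without overlap. Over all genes the median was 37.6% for FMRP Illumina tags and 61.5% for Hu tags, again without overlap by library. The order of the 2 proteins was thus that of genes at large and was not particular to Eif4g2. Eif4g1 showed Hu tags only at its end: all 5 began at or after base 5273 of 5477, where FMRP had none past base 5198. Eef1a2 FMRP tags were spread from base 216 to base 2036, with no 100-nucleotide stretch above 4 of 21 Illumina tags.

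**Figure D4:**
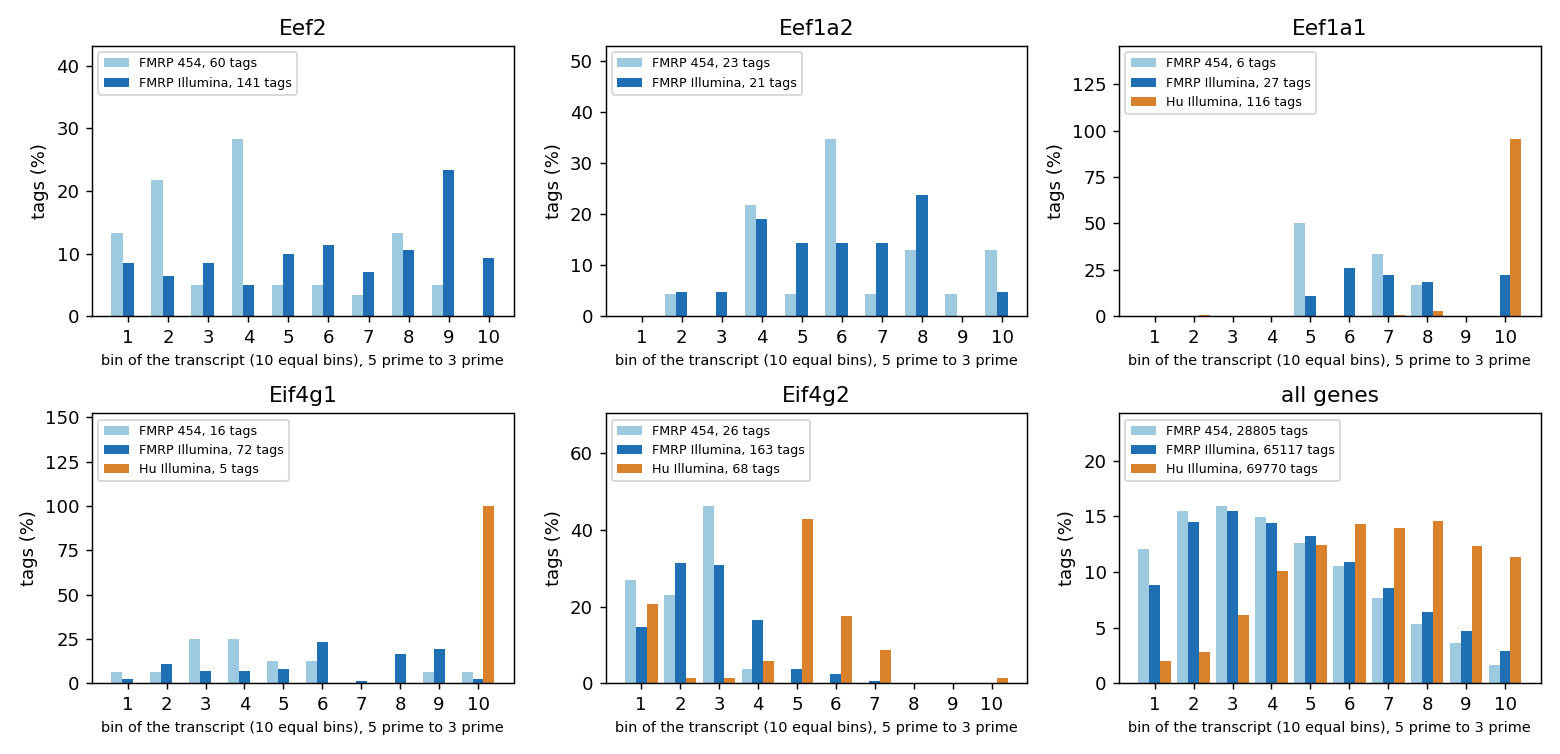
Share of tags in percent (vertical axis) in each of 10 equal bins of the transcript (horizontal axis) for 5 members and for all genes, in FMRP 454 libraries (light blue), FMRP Illumina libraries (blue) and Hu libraries (orange), for sets with at least 5 tags. Hu tags of Eef1a1 stand in bin 10 (111 of 116), and Eef2 tags of Illumina FMRP libraries are most frequent in bin 9 (33 of 141).

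The share of FMRP tags in coding sequence was set against the share of coding length. For Eif4g2 the coding sequence is 35.1% of the listed length, and 87.2% ± 15.6 (SD, n = 7) of its tags were coding, higher in 7 of 7 libraries, an excess of 52.1 points (exact sign-flip permutation test, two-sided, p = 0.0156, adjusted p = 0.0313 over the 2 members tested). Each library weighed the same in this mean, although the shares rest on unequal counts. These were 2, 4 and 9 tags in the monoclonal libraries (P14, P15, P25), 2 and 12 in the polyclonal 454 libraries (P14, P25) and 86 and 34 on Illumina (P11, P13). No FMRP tag of Eif4g2 ended past base 4694, or 60.5% of the listed transcript. With the length ended there the excess was 29.2 points, again in 7 of 7 libraries. This cut was not planned and was taken from the same FMRP tags. The last Hu tag of Eif4g2 ended beyond it, at base 7187. Eef2 had 91.9% ± 10.2 (SD, n = 7) of its tags in coding sequence against 84.0% by length (exact sign-flip permutation test, two-sided, p = 0.125, higher in 4 of 7 libraries), a difference not shown at this depth. Only these 2 members had a tag in each FMRP library, and the smallest p that 7 libraries allow is 0.0156.

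For the rest, tags were summed over the libraries and give counting error alone. Eif4g3 had 36 of 37 tags in coding sequence (97.3%, Wilson interval 86.2 to 99.5) against 53.5% by length. Eif4g1 had 94.9% (87.5 to 98.0) against 87.7%. The Eef1a2 share was 82.4% (66.5 to 91.7) against 68.0%, and the Eef1a1 share 78.6% (60.5 to 89.8) against 77.6%, and the intervals of Eif4g1, Eef1a2 and Eef1a1 all hold the length share. Over all genes 69.5% to 86.6% of the authors' FMRP counts per library were coding, beside the mean of 87.2% for Eif4g2. The test of Eif4g2 was thus against its own listed length and does not set it apart from other genes. The excess over the length share was not determined for all genes.

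**Figure D5:**
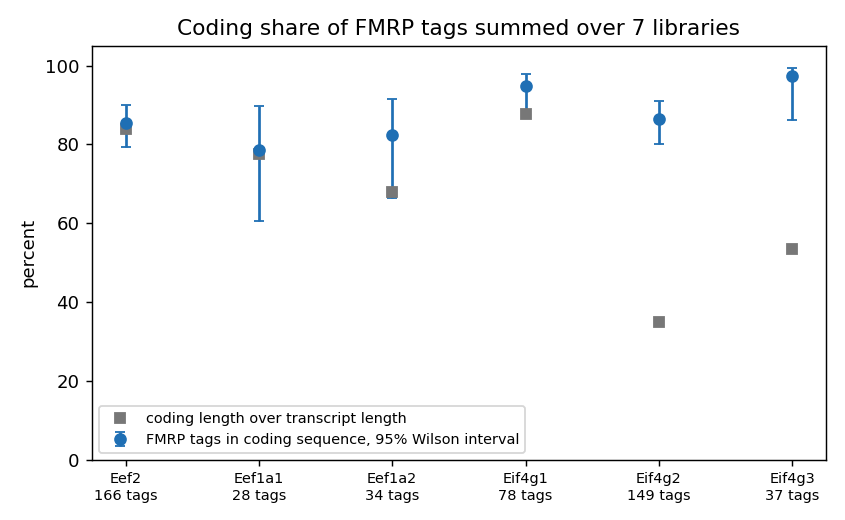
Percent of FMRP tags in coding sequence, summed over 7 libraries (blue points, bars 95% Wilson intervals), beside coding length as a percent of transcript length (grey squares) for 6 members. The gap is widest for Eif4g2 (86.6% against 35.1%) and Eif4g3 (97.3% against 53.5%), while for Eef2 the square lies inside the interval.

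Among FMRP libraries the elongation factor Eef2 did not pass any test of antibody, age or protocol. Polyclonal and monoclonal libraries of Protocol 1 were compared for the antibody, and the log2 difference of monoclonal minus polyclonal was -0.46 (SE 0.51, adjusted p = 0.997). P25 minus P14 and P15 gave 0.04 (SE 0.49, adjusted p = 0.969). Protocol 2 minus Protocol 1, within the polyclonal antibody, gave -0.02 (SE 0.51, adjusted p = 0.989). The fits, made with edgeR on the authors' whole-transcript counts, tested 90, 90 and 317 genes. They called 0% of genes for antibody (4 at unadjusted p under 0.05) and 0% for age (6 at unadjusted p under 0.05), and DESeq2 called 0 in both.

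The protocol fit called 8.20% of genes higher with Protocol 2 and 5.99% higher with Protocol 1. Of the 4 members it tested, Eef1a2 was lower with Protocol 2, by a log2 difference of -1.75 (SE 0.46, edgeR adjusted p = 0.0357). The authors' counts behind it are few, at 7 and 4 tags in the polyclonal 454 libraries (1035 and 705 CPM) and 4 and 11 tags in the Illumina libraries (162 and 262 CPM). The call was lost with the authors' coding counts (adjusted p = 0.0716), with DESeq2 (0.510), with no filter (0.820), and without either Protocol 1 library (0.792 without P14, 0.440 without P25). Eif4g2 (1.06, SE 0.55, adjusted p = 0.194) and Eif4g1 (0.45, SE 0.73, adjusted p = 0.723) did not pass. Protocol, platform and age cannot be told apart in this comparison.

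Other genes of translation gave few tags. In the FMRP over Hu fit, which could test 4 of the 173 genes of 7 further lists, all 4 were lower with FMRP, beside 27.3% of all genes tested. These 4 (Eif5a, Eif5a2, Eif4a1 and Eif2s3x) met the filter on low counts only through their Hu tags. Their direction was thus fixed in advance by the filter and says nothing about the lists. Other settings tested other genes and gave calls the other way: with no filter 3 of 16 aminoacyl-tRNA synthetases tested (Aars, Iars and Lars) were higher with FMRP and 0 lower. In that setting 376 of all 10338 genes were higher with FMRP and 155 lower. With genomic tags the 1 gene tested of eIF1, eIF2, eIF5 and eIF6, Gcn1l1, was higher by a log2 difference of 5.13. There 240 of all 1041 genes were higher with FMRP and 202 lower. Lars and Gcn1l1 are named after their values were seen. Of 10 other elongation factors and regulators, 2 were tested: Eif5a, whose product helps the ribosome past difficult peptide bonds, was lower by a log2 difference of -2.38 (SE 0.67, edgeR adjusted p = 0.0146), and its relative Eif5a2 by -2.72 (SE 0.77, adjusted p = 0.0147). Their median was -2.55. Neither passed with DESeq2 (adjusted p = 0.0905 and 0.0740) or in edgeR with no filter (adjusted p = 0.143 and 0.131). Eif5a2 also missed the threshold with the lysate as replicate block (adjusted p = 0.0730). Leaving out each Illumina library, where a fit was possible, the log2 difference ran from -2.87 to -1.52 for Eif5a and from -6.51 to -1.59 for Eif5a2. Eef2k, which encodes the kinase of eEF2, had 4 FMRP tags and 3 Hu tags on Illumina, and Eef1d, of the exchange complex, had 2 and 0.

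Of the 17 genes of eIF4F and cap binding, Eif4a1, the helicase bound by eIF4G, was the 1 tested and was lower with FMRP, by -2.38 (SE 0.74, adjusted p = 0.0213; 8 FMRP and 53 Hu tags). Its call too was lost with DESeq2 (adjusted p = 0.0802) and in edgeR with no filter (adjusted p = 0.108). Leaving out each Illumina library, the log2 difference ran from -2.28 to -1.61. Eif4h had 6 and 27 tags, Paip2 0 and 18, and Pabpc1, which encodes the poly(A)-binding protein, 13 and 4. Of the 23 genes of eIF1, eIF2, eIF5 and eIF6, Eif2s3x, a subunit of eIF2, was lower by -5.16 (SE 1.10, edgeR adjusted p = 0.00446). It had 1 FMRP and 51 Hu tags. Eif4a1 and Eif2s3x met the filter only through Hu tags, so their direction was fixed in advance and their calls are no support. Eif2s3x passed in each alternative that kept all Illumina libraries and could fit it (edgeR or DESeq2 adjusted p from 2.9e-05 to 0.00566). Leaving out each Illumina library, its log2 difference ran from -7.51 to -4.09. Eif2b5 had 9 FMRP and 2 Hu tags, Eif1b 1 and 12, and Eif1 4 and 7.

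No gene of the other lists passed the filter on low counts. The 20 aminoacyl-tRNA synthetases summed to 102 FMRP and 26 Hu tags on Illumina, with Iars at 17 and 0, Aars at 13 and 0, Gars at 13 and 1, and Nars at 7 and 8. The 14 genes of eIF3 summed to 49 and 19, with Eif3a at 12 and 16, Eif3d at 9 and 0, Eif3l (listed as Eif3eip) at 7 and 0, and Eif3b at 5 and 0. Termination and recycling factors summed to 29 and 41, with Gspt1 at 11 and 20, Etf1 at 4 and 12, Abce1 at 5 and 8, and Hbs1l at 9 and 1. The 83 cytosolic ribosomal proteins summed to 52 and 50, of which 29 genes had any tag, with Rpl4 at 15 and 2, Rps15a at 1 and 17, Rps3 at 5 and 8, and Rpl22 at 2 and 5.

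By likeness over the 9 libraries, the genes closest to Eef2 were Tns3 (Pearson r 0.982), Chd3 (0.982), Mapk8ip1 (0.980), 2610507B11Rik (0.979) and Kif1a (0.976), among 782 genes with at least 50 tags. The measure was log2 of CPM plus 200, and the 9 points share libraries, depth and the gap between FMRP and Hu. Kif1a, a kinesin motor, had 211 and 236 Illumina tags with FMRP against 1 and 7 with Hu, and Chd3, a chromatin remodeller, had 85 and 63 against 2 and 3. Among the members, r with Eef2 was 0.64 for Eif4g1, 0.05 for Eif4g2 and -0.87 for Eef1a1.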

How the data were processed

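Per the submitters' processing notes, reads were placed with Novoalign on mm9. The authors deposited lists of tags on RefSeq transcripts and on the genome, with a score per tag that was not used, and a gene table with whole-number counts, over transcript and coding sequence, in each FMRP library. Array intensity and neuronal log2 expression are deposited there by the authors from other measurements. Each listed tag counted as 1. FMRP and Hu were compared on transcript tags; the other fits used the deposited counts. Tests used edgeR 4.0.16 (R 4.3.3; TMM, filterByExpr, quasi-likelihood, Benjamini-Hochberg at 0.05), with DESeq2 1.42.0 as an alternative, and were tested on simulated data. Counting intervals are exact, shares have Wilson intervals at 95%, and both cover counting error only. Where leaving out a library left 1 in a group, that library was taken to vary like the others. P-values measure the spread between libraries, each a pool of mice. Of 30999 table lines, 29261 genes kept 1 line each. The members, lists and tests were chosen with earlier results of these data known. Genes named beside the members are the 4 most tagged of each list, the 5 most like Eef2, and Apc, Bsn and Map1b; 5 older symbols were matched by gene identifier. The series text gives the pairing by lysate. Deviations of the paired libraries correlated at 0.16 over 1015 genes.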

Additional observations from a re-analysis of the deposited data

How the results depend on the processing

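The sign of Eef2, Eef1a1, Eif4g1 and Eif4g2 in FMRP against Hu was the same under every scaling, tool, filter, tag-counting and leave-one-out setting that could fit them. As the members were chosen with this contrast in view, the shared sign is a description and no support. Sizes moved: Eef1a1 went from -1.81 to -0.51 (SE 0.74) with 1 tag per start position. Eif4g2 went from 1.65 to 0.93 without the P11 FMRP library. Against a median log2 of -0.16 over all genes with TMM, DESeq2 size factors gave 0.21 and library totals -0.38. Leaving out each library moved it from -0.85 (without P13 FMRP) to 0.98 (without P13 Hu). Genes higher in FMRP numbered 341 (214 to 429 leaving out each library, lowest without the P11 Hu library) and genes higher in Hu 277 (77 to 204, 128 with DESeq2, 155 with no filter). With the lysate as replicate block they numbered 331 and 269, and of the genes named it ended the call of Eif5a2 alone. Without the P13 Hu library the log2 of Eef2 was 9.31, and without the P11 Hu library that of Eif4g1 was 5.51. The protocol comparison called 45 genes, 25 with DESeq2 size factors, 0 with DESeq2, 28 with no filter and 0 to 20 leaving out each library. The age comparison called 0 to 1 gene leaving out each library. The coding excess of Eif4g2 ran from 50.0 to 56.9 points leaving out each library, and its adjusted p from 0.0469 to 0.0938, as 6 libraries allow fewer sign flips and another member entered the adjustment in some. It could not be tested at 3 tags in each library. Per kilobase of whole transcript Eef2 had 551 and Eif4g3 36.2. The causes were not tested. Few tags limit Eef1b2 and Eef1g, and Eif4g3 is limited by the transcript lists.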
